A study of Homo sapiens with 9 samples.

Results

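Chemokine ligands and chemokine receptors were followed across RNA libraries of HEK293T cells, a human embryonic kidney line. Members were all genes whose symbol consists of CCL, CXCL, XCL, CX3CL, CCR, CXCR, XCR or CX3CR and a number, without pseudogenes. The rule gave 61 of 57338 genes in the deposited table, of which 43 encode ligands and 18 encode receptors. The study asked how human protamines, the small basic proteins that pack DNA in sperm, act when they are made in somatic cells. The cells received an EGFP plasmid (empty vector) or a plasmid for a fusion of EGFP with hPRM1 or with hPRM2, and those with high EGFP were sorted 3 days after transfection. All groups therefore carry EGFP and the sort for it, and each group has 3 libraries.

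Chemokines are small secreted proteins that direct the migration of white blood cells. They bind receptors of the G protein-coupled family, in which a receptor can take several ligands and a ligand several receptors. Neutrophils, monocytes and lymphocytes each carry a characteristic set of receptors, whereas many other cells can make ligands once NF-kappa-B or interferon regulatory factors switch their genes on. CCL5 is made by T cells and natural killer (NK) cells and can be induced in epithelial and kidney cells. CXCL8 is the main attractant of neutrophils, and CXCR4, the receptor of CXCL12, is found on most white blood cells and on many other cell types.

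The libraries cannot all be taken at their label. PRM1 was listed at 0 in all 9 libraries, and PRM2 was listed at 71224, 60050 and 36130 RPKM in hPRM2 and at 0 in the other 6. The libraries labelled hPRM1 differed from the other 6 in lists of blood marker genes, and they are named by their label throughout. For each list, the genes named are those with the highest mean over the 9 libraries. Summed haemoglobin genes (HBA2 and HBB) reached 2061743 to 2267020 RPKM there and 15.5 to 29.5 RPKM in the empty vector. Markers of neutrophils and monocytes summed to 3897 to 4858 RPKM against 40.1 to 41.4 RPKM (S100A9 and S100A8, which encode the calprotectin subunits). Markers of T and NK cells summed to 1136 to 1488 RPKM against at most 0.438 RPKM (NKG7 and TRAC). B cell markers (CD79A and MS4A1) summed to 74.7 to 94.0 RPKM against at most 1.69 RPKM, and platelet markers (PF4 and GP1BB) to 342 to 603 RPKM against at most 32.9 RPKM. GP1BB overlapped between these groups, at 16.9 to 34.4 RPKM against 12.2 to 19.6 RPKM, and 6 of the 8 platelet genes were above every empty vector library. Of all 13588 genes tested between these groups, 14.5% lay wholly above the empty vector. Markers of HEK293T cells (CKB and NEFM) went the other way, from 3011 to 4726 RPKM in the empty vector and 1358 to 5139 RPKM in hPRM2 to 7.06 to 10.7 RPKM in the libraries labelled hPRM1. NEFM, HMGA2, IGF2BP1 and LIN28B of that list were at 0 in all 3 of them. The library names in the sample labels give these 3 libraries numbers from another range than the other 6, and a batch that such numbers may mark cannot be told apart from the condition. Reads on genes were estimated at 7920000 to 10770000 for the empty vector, 4210000 to 5860000 for the libraries labelled hPRM1 and 1270000 to 2650000 for hPRM2. The labels do not say whether the 3 libraries of a group came from separate transfections, so that p-values measure the spread between these libraries, which may be technical. In such bulk RNA, a change in the share of cells of a type and a change in RNA per cell cannot be told apart.

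**Figure D1:**
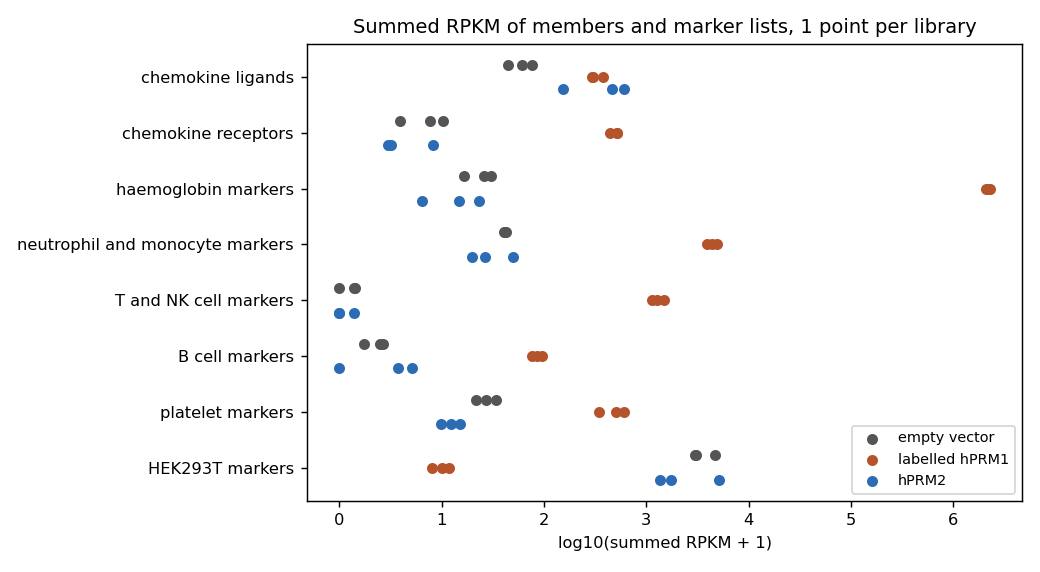
Summed RPKM of the chemokine ligands, the chemokine receptors and 6 marker lists on a log10(sum + 1) axis, with 1 point per library and colours for the 3 groups. The receptors reached 445 to 517 RPKM in the libraries labelled hPRM1, where the blood cell lists were also high and the HEK293T list was low.

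Values are deposited RPKM, the count of a gene divided by the counted reads of the library (in units of 1000000) and by its length in kilobases. Each comparison was made with limma on log2(RPKM + 1), over genes with at least 1 RPKM in at least 3 of the 6 libraries. A call needed a Benjamini-Hochberg adjusted p of at most 0.05 over all genes tested and a fold change of at least 2. On this scale the change of low genes is understated. The libraries read the 3′ ends of transcripts, so that division by length lowers the value of long genes, and levels of different genes are compared with that limit.

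Most members were silent or close to it in HEK293T cells. In the empty vector, 14 members were above 0 in any library, and 6 were above 0 in all 3, namely the ligands CCL5, CXCL14, CXCL16 and XCL1 and the receptors CCR6 and CXCR4. In hPRM2, 12 members were above 0 in any library and 4 in all 3. In the libraries labelled hPRM1, 37 members were above 0 in any library and 29 in all 3, of which 14 were ligands and 15 receptors. Another 18 members, 17 ligands and the receptor CCR8, were listed at 0 in all 9 libraries. Among these silent ligands were CXCL10 and CXCL11, which interferons induce, and CCL19 and CCL21, the ligands of CCR7. At the depth of hPRM2, a value of 0 allowed up to 3 reads, or 1.132 to 2.362 reads in 1000000, against 0.279 to 0.379 in the empty vector, and these limits cover counting error only.

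**Figure D2:**
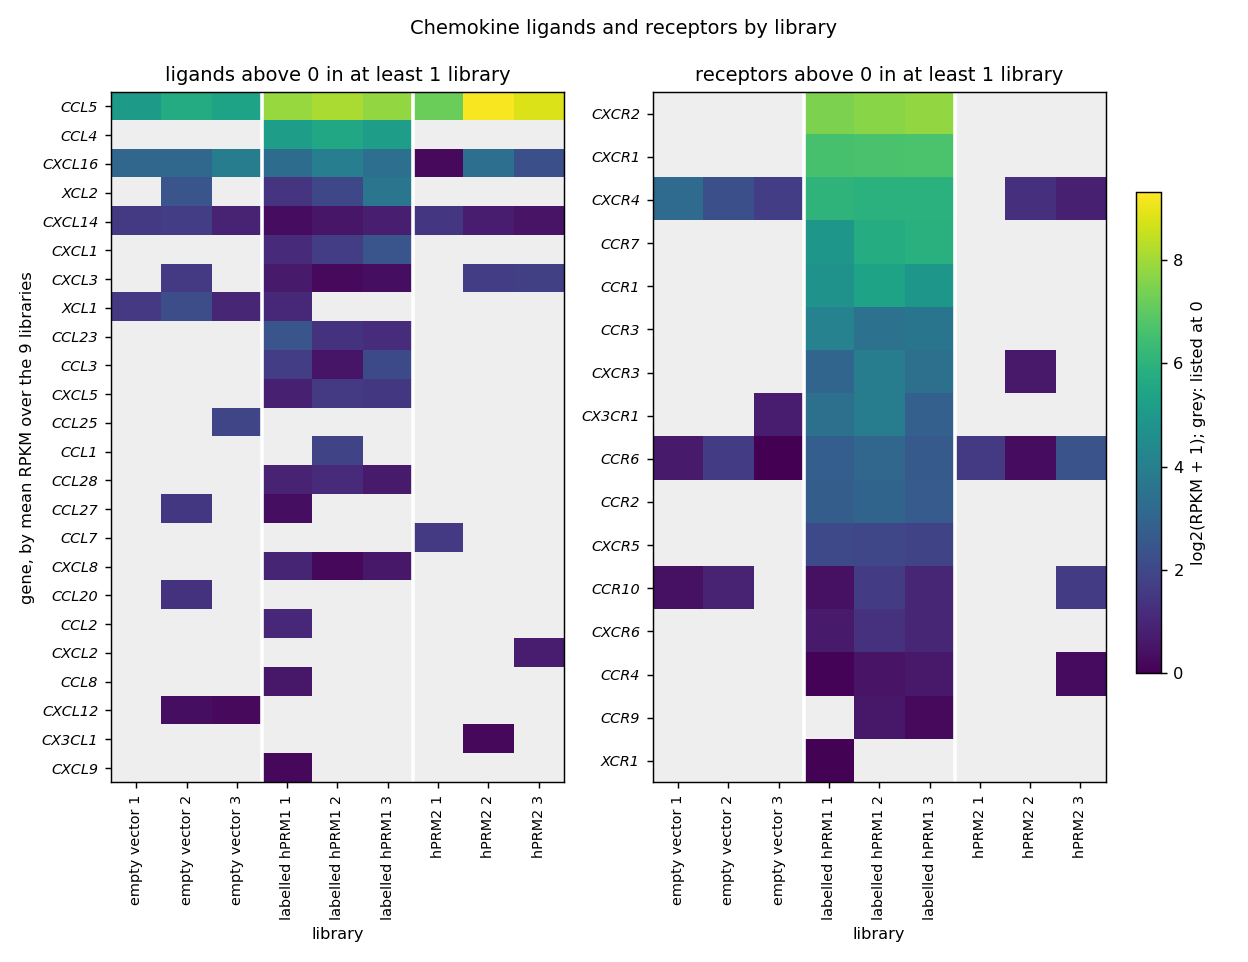
Level of ligands (left) and receptors (right) in the 9 libraries as log2(RPKM + 1), with genes ordered by their mean RPKM and grey for a listed value of 0; not every gene is drawn. CCL5 is filled in all 9 columns, whereas most receptors are filled only under the label hPRM1.

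CCL5 stood above the other 42 ligands of the name rule in every library. The gene (ENSG00000271503) lies at chr17:35871491-35880793 on the minus strand of GRCh38 in GENCODE 29. Empty vector replicates 1, 2 and 3 had 32.4, 51.7 and 41.4 RPKM, a mean of 41.8 ± 9.65 (SD, n = 3). hPRM2 replicates 1, 2 and 3 had 149, 594 and 452 RPKM, a mean of 398 ± 227 (SD, n = 3). All 3 hPRM2 libraries lay above the highest empty vector library, at 3.57, 14.2 and 10.8 times the empty vector mean. Of all 13126 genes tested in that comparison, 6.01% lay wholly above the empty vector. The libraries labelled hPRM1 had 231, 279 and 220 RPKM, a mean of 243 ± 31.1 (SD, n = 3). They also lay above every empty vector library, and within the range of hPRM2. Under this label, 14.5% of all 13588 genes tested lay wholly above the empty vector.

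CCL5 made up 68.6% to 74.0% of the summed ligand RPKM in the empty vector, 72.5% to 77.9% in the libraries labelled hPRM1 and 97.4% to 98.4% in hPRM2. Its rank among all genes of a library ran from 2725 to 3682 in the empty vector, from 405 to 1150 in hPRM2 and from 222 to 247 in the libraries labelled hPRM1. CCL5 has annotated transcripts of several lengths, and its reads were therefore estimated only as a range, from 120.4 reads at the least in the empty vector to 1509.6 at the most in a library labelled hPRM1. In hPRM2 the estimates ran from 185.4 to 841.7 reads.

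In hPRM2 against the empty vector, CCL5 was the only member called. It rose by 3.03 on the log2 scale (standard error 0.55, limma adjusted p = 0.0424), while 1.36% of all 13126 genes tested were called higher and 1.37% lower. The median of all genes tested was -0.72. Of the members, 0 were called lower by limma or by the gene-wise test that the study used, and 1, CXCR4, was lower at an unadjusted p under 0.05. Of all 13126 genes tested, 3351 were at an unadjusted p under 0.05 in either direction. The gene-wise test called 0 members higher. The 6 members tested were CCL5, CXCL3, CXCL14, CXCL16, CCR6 and CXCR4, and the other 55 were too low to test. The estimate for CCL5 stayed between 2.63 and 3.62 over 16 other settings, but the adjusted p lay between 0.00355 and 0.250, and the call was lost in 11 of them. Without empty vector replicate 1, 2 or 3 the adjusted p was 0.239, 0.186 or 0.250, and without hPRM2 replicate 2 or 3 it was 0.128 or 0.0642. Without hPRM2 replicate 1, which had the lowest CCL5 level and 9652 genes above 0 against 14353 and 15633, the adjusted p was 0.00355. Replicate 1 also had the highest PRM2 level of the 3.

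**Figure D3:**
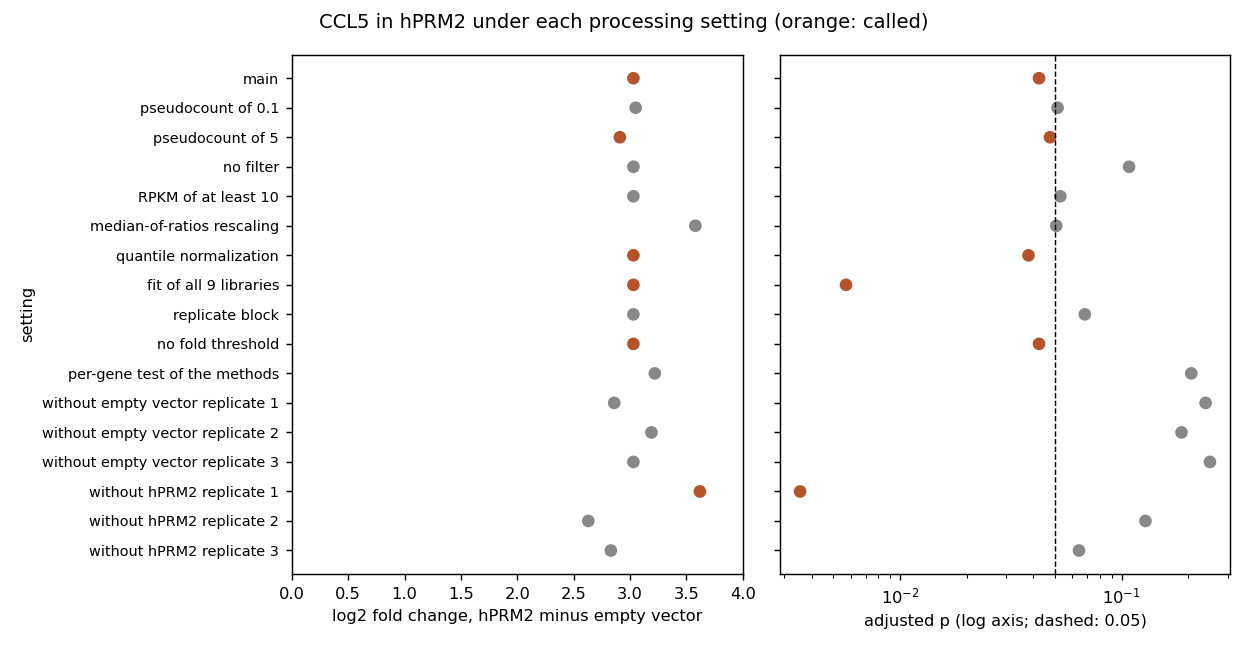
CCL5 in hPRM2 against the empty vector under the main fit and 16 other settings, with the log2 fold change on the left and the adjusted p on a log axis on the right. The estimates sit between 2.63 and 3.62 in all settings, and 11 points lie right of the dashed line at 0.05.

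Receptors through which CCL5 is known to act were not detected beside it in the empty vector and hPRM2. CCR1 and CCR3 were listed at 0 in all 3 empty vector and all 3 hPRM2 libraries. For CCR1 a value of 0 allowed at most 0.153 RPKM with the empty vector and 0.952 RPKM in hPRM2. In the libraries labelled hPRM1, CCR1 had 26.6, 40.9 and 29.2 RPKM and CCR3 had 16.4, 10.5 and 11.1 RPKM.

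CXCR4 was the highest receptor in each empty vector library and had at most 3 reads in an hPRM2 library. The gene (ENSG00000121966) lies at chr2:136114349-136118165 on the minus strand. Empty vector replicates 1, 2 and 3 had 8.51, 3.77 and 2.25 RPKM, which correspond to 111, 53 and 40 reads. hPRM2 had 0, 1.43 and 0.756 RPKM, or 0, 3 and 2 reads. The highest hPRM2 library lay below the lowest empty vector library, as for 29.9% of all 13126 genes tested. The difference of -1.70 on the log2 scale (standard error 0.62, limma adjusted p = 0.155) was not called. The lowest empty vector level, 3.71 reads in 1000000, would give 9.8, 4.7 and 6.0 reads at the depths of the 3 hPRM2 libraries. Against these, 0, 3 and 2 reads were estimated. The part of depth in this difference was not tested. In the libraries labelled hPRM1, CXCR4 had 65.3, 59.9 and 60.0 RPKM, above all other 6 libraries. There it was called higher than in the empty vector by 3.57 (standard error 0.39, limma adjusted p = 0.000183) and higher than in hPRM2 by 5.27 (standard error 0.44, limma adjusted p = 0.000278). Of the genes tested in these comparisons, 14.5% lay wholly above the empty vector and 19% wholly above hPRM2. CXCL12, the ligand of CXCR4, was listed at 0 in hPRM2 and in the libraries labelled hPRM1, and at 0, 0.285 and 0.170 RPKM in the empty vector.

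CXCL8 was not detected in the empty vector or in hPRM2. The gene (ENSG00000169429) lies at chr4:73740506-73743716 on the plus strand. The libraries labelled hPRM1 had 0.938, 0.163 and 0.526 RPKM, which correspond to 8, 1 and 4 reads, and the gene was too low to test. A value of 0 allowed at most 0.260 RPKM in the empty vector and 0.778 to 1.62 RPKM in hPRM2, so that the level seen under the label hPRM1 would not have been detectable in every hPRM2 library. Its receptors CXCR1 and CXCR2 were the highest receptors of the same 3 libraries.

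**Figure D4:**
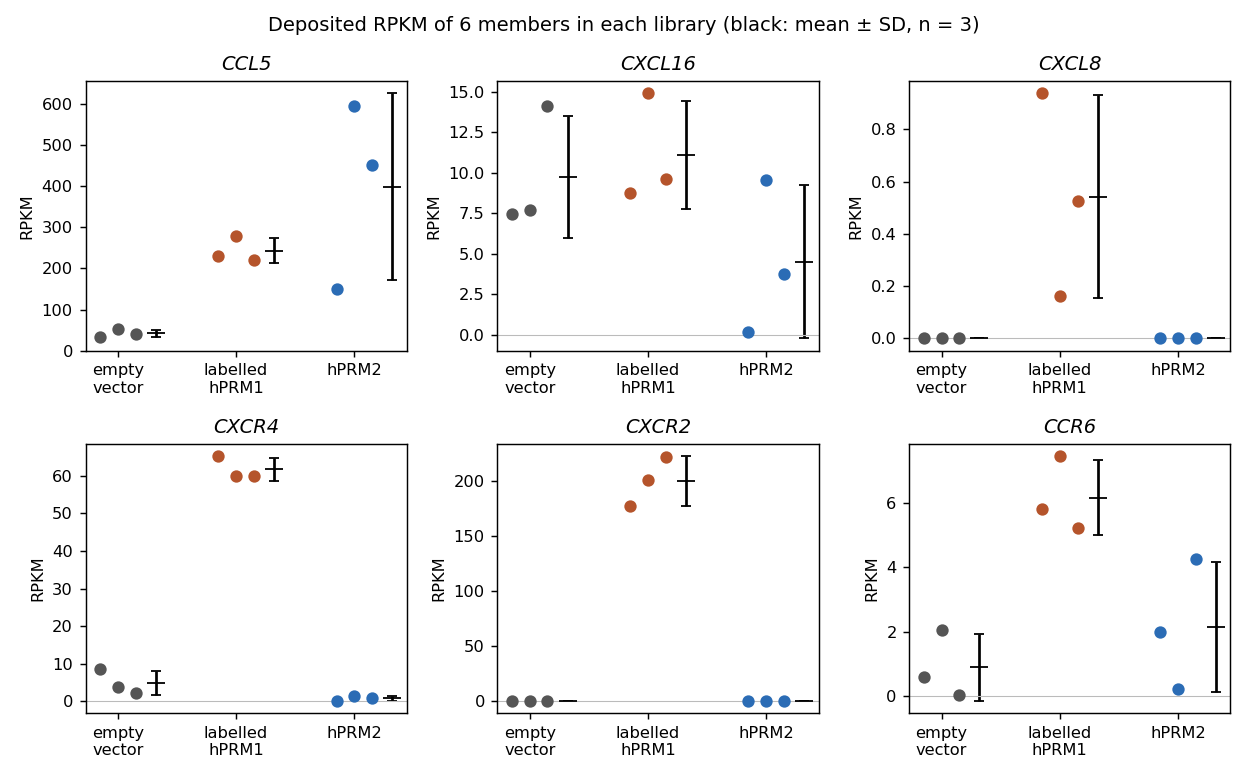
Deposited RPKM of CCL5, CXCL16, CXCL8, CXCR4, CXCR2 and CCR6 in each library on linear axes, with the mean ± SD of 3 libraries in black. CCL5 is above the empty vector in all 3 hPRM2 libraries, while CXCL16 and CCR6 overlap between these groups.

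The upstream sequences of CXCR4 and CXCL8 are given because both are among the 3 genes taken as markers of the family, and in the empty vector CXCR4 was detected and CXCL8 was not. Each runs 5′ to 3′ on the strand of the gene and ends before the first base of the gene in GENCODE 29, with bases that match a motif in capitals (GRCh38.p14).
CXCR4, chr2:136118166-136118399, minus strand: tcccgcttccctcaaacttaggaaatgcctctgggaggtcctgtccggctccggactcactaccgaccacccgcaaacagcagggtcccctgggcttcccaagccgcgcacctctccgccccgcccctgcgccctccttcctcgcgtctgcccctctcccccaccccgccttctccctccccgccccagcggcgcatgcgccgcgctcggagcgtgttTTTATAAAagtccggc
CXCL8, chr4:73740319-73740505, plus strand: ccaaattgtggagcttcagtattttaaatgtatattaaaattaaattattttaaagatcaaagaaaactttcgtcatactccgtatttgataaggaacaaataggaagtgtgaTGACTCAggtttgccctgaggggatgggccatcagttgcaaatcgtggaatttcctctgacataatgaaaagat
The TATA box was searched as TATAAA on both strands of the 250 bases before the RefSeq start. The AP-1 motif was searched in the same way as TGANTCA. In CXCR4 the capitals are TATAAA on the strand of the gene, overlapping the same letters on the other strand, 32 to 25 bases before the RefSeq start. In CXCL8 the capitals are an AP-1 match, 137 to 131 bases before the start. The searched pattern TGANTCA, though not the matched letters, reads the same way on both strands. CXCL8 also held TATAAA on its own strand, 31 to 26 bases before the start, in the bases that are not printed because they lie within the gene in GENCODE 29. Of 27305 promoters, 11.13% held the TATA letters and 6.60% the AP-1 letters, as did 15 and 7 of the 45 members in the table. A match describes letters only.

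Of the remaining ligands, CXCL16, CXCL14 and CXCL3 were tested in hPRM2 against the empty vector and were not called. CXCL16, a membrane-bound ligand of CXCR6, had 7.46, 7.69 and 14.1 RPKM with the empty vector and 0.191, 9.56 and 3.78 RPKM in hPRM2. The groups overlapped, and the difference was -1.40 (standard error 0.88, limma adjusted p = 0.343). CXCL14, a ligand made by many epithelia, had 2.0, 2.25 and 0.844 RPKM with the empty vector and 1.75, 0.673 and 0.412 RPKM in hPRM2, which overlapped as well (log2 difference -0.49, limma adjusted p = 0.513). CXCL3, a ligand of CXCR2, had 0, 2.01 and 0 RPKM with the empty vector and 0, 2.26 and 2.40 RPKM in hPRM2 (log2 difference 0.63, limma adjusted p = 0.561). XCL1, a ligand of XCR1, was at 1.92, 3.56 and 0.996 RPKM in the empty vector and listed at 0 in hPRM2, where it was too low to test. The empty vector mean of XCL1 was at least 1.35-fold higher than the level that 3 reads per library would give in hPRM2.

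Of the receptors in hPRM2, CCR6, the receptor of CCL20, had 2.0, 0.228 and 4.25 RPKM against 0.595, 2.06 and 0.0251 RPKM in the empty vector. The groups overlapped (log2 difference 0.65, limma adjusted p = 0.550). CCR10, CXCR3 and CCR4 were above 0 in 1 hPRM2 library each, at 2.04, 0.572 and 0.219 RPKM, and the other receptors apart from CXCR4 were at 0 in all 3.

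In the libraries labelled hPRM1, 17 of the 18 receptors were above 0 in at least 1 library. Their summed level was 445, 517 and 517 RPKM, against 9.44, 6.67 and 2.96 RPKM with the empty vector and 2.0, 2.23 and 7.27 RPKM in hPRM2. Of 18 receptors, 11 were tested against the empty vector, all 11 were called higher, and 7 were too low to test. Over all 13588 genes tested in that comparison, 12.9% were called higher and 62.5% lower, with a median of -1.72. Of the 19 members tested, 13 reached 1 RPKM only in the libraries labelled hPRM1 and had to differ to be tested, so that their number says nothing further. The marker lists of blood cells above rose in the same libraries, and their part in these values was not tested.

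CXCR2 and CXCR1, the receptors by which neutrophils sense CXCL8 and related ligands, were the highest. CXCR2 had 177, 201 and 222 RPKM in the libraries labelled hPRM1 and was listed at 0 in the other 6 libraries. The log2 difference from the empty vector was 7.65 (standard error 0.19, limma adjusted p = 1.97e-06), which depends on the pseudocount for a gene at 0 in the other group. CXCR1 had 96.4, 99.2 and 101 RPKM, or 1264, 934 and 1180 reads, and was also at 0 elsewhere. Its mean of 98.9 ± 2.31 RPKM (SD, n = 3) was at least 658-fold higher than the mean level that 3 reads per library would give in the empty vector, and at least 124-fold higher than that in hPRM2. CXCR1 and CXCR2 reached 1 RPKM only in the libraries labelled hPRM1, so that both had to lie above the empty vector to be tested. CXCR2 alone took 38.9% to 42.9% of the summed receptor RPKM.

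Receptors of monocytes and eosinophils were also called. CCR1, which binds CCL3 and CCL5, had a mean of 32.2 ± 7.61 RPKM (SD, n = 3), at least 238-fold above the level of 3 reads per library in the empty vector. CCR3, the eosinophil receptor for eotaxins, had 12.7 ± 3.27 RPKM and a log2 difference of 3.75 (limma adjusted p = 1.90e-05). CCR2, the receptor for CCL2 on classical monocytes, had 5.68, 6.94 and 5.30 RPKM, with a log2 difference of 2.80 (limma adjusted p = 2.95e-05). CX3CR1, the receptor for CX3CL1 on patrolling monocytes and NK cells, had 9.91, 14.2 and 6.16 RPKM against 0, 0 and 0.682 RPKM in the empty vector (log2 difference 3.16, limma adjusted p = 0.000237). All 4 reached 1 RPKM only in the libraries labelled hPRM1, so that they had to lie above the empty vector to be tested.

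Lymphocyte receptors were also called. CCR7, which guides naive T cells to lymph nodes, had 29.4, 53.8 and 59.0 RPKM and was at 0 in the other 6 libraries (log2 difference 5.54, limma adjusted p = 1.02e-05). CXCR3, found on activated T cells, had 7.20, 14.5 and 9.75 RPKM, at least 42.9-fold above the level of 3 reads per library in the empty vector. CXCR5, the receptor of B cells and follicular helper T cells, had 3.18, 2.95 and 2.79 RPKM, with 78, 52 and 61 reads, and was at least 37.1-fold higher. CCR7, CXCR3 and CXCR5 reached 1 RPKM only in the libraries labelled hPRM1, so that they had to lie above the empty vector to be tested. CCR6, unlike these, was above 0 in all 9 libraries. It had 5.81, 7.46 and 5.21 RPKM under the label hPRM1 and rose by 2.05 (standard error 0.42, limma adjusted p = 0.00348), with no overlap with the empty vector. Of all genes tested there, 14.5% lay wholly above the empty vector. CCR4, CCR9, CCR10, CXCR6 and XCR1 were detected but too low to test there, at means of 0.0113 RPKM for XCR1 to 1.12 RPKM for CCR10.

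Among the 43 ligands, 8 were tested in the libraries labelled hPRM1 against the empty vector, 5 were called higher and 1 lower. Over all genes tested, 12.9% were called higher and 62.5% lower. Of the 8 ligands, 4 reached 1 RPKM only under that label and had to differ to be tested, CCL4, CXCL1 and CCL23 among them. CCL5 rose by 2.53 (standard error 0.22, limma adjusted p = 6.32e-05). CCL4, a ligand made by T cells, NK cells and monocytes, had 35.7, 47.2 and 35.0 RPKM and was at 0 elsewhere (log2 difference 5.32, standard error 0.21, limma adjusted p = 4.16e-06). CXCL1, a ligand of CXCR2, had 1.21, 2.24 and 4.52 RPKM from 6, 8 and 20 reads, and its mean was at least 6.70-fold higher than the level of 3 reads per library in the empty vector. CCL23, a ligand of CCR1, had 4.49, 1.56 and 1.26 RPKM from 4, 1 and 1 reads, so that its call (limma adjusted p = 0.00380) rested on very few reads. The 5 called include CCL4L2, a near-identical copy of CCL4. Reads can be split between such copies, and between CCL3 and CCL3L3, so no value is given for the copies and CCL4 is uncertain in its level.

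XCL1 fell by 1.23 on the log2 scale (standard error 0.42, limma adjusted p = 0.0302), at 1.07, 0 and 0 RPKM against 1.92, 3.56 and 0.996 RPKM. The groups overlapped, and the call was lost in 7 of 12 other settings, including both rescalings. Without replicate 2 or 3 of the libraries labelled hPRM1, its adjusted p was 0.0987 and 0.10. XCL2, which is nearly identical to XCL1 and can share its reads, had 1.63, 3.02 and 11.5 RPKM against 0, 4.47 and 0 RPKM (log2 difference 1.53, limma adjusted p = 0.139). It was called without empty vector replicate 2 (2.35, limma adjusted p = 0.0180). CXCL16 had 8.73, 14.9 and 9.63 RPKM and overlapped with the empty vector, with a log2 difference of 0.19 (standard error 0.32, limma adjusted p = 0.610). Relative to the median shift of -1.72 it lay higher, and after median-of-ratios rescaling its difference was 2.14 (limma adjusted p = 0.000772), as XCL2 rose by 2.69 (limma adjusted p = 0.0172).

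Ligands too low to test in these libraries but above 0 in all 3 included CXCL5, a ligand of CXCR2 stored in platelets, at 0.745, 1.97 and 1.84 RPKM from 10, 19 and 22 reads. CCL3 had 2.26, 0.450 and 3.26 RPKM from 7, 1 and 9 reads, and CCL28, a mucosal ligand of CCR10, had 0.900, 1.17 and 0.592 RPKM. Both CXCL5 and CCL28 were at 0 in the other 6 libraries, as was CCL3.

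**Figure D5:**
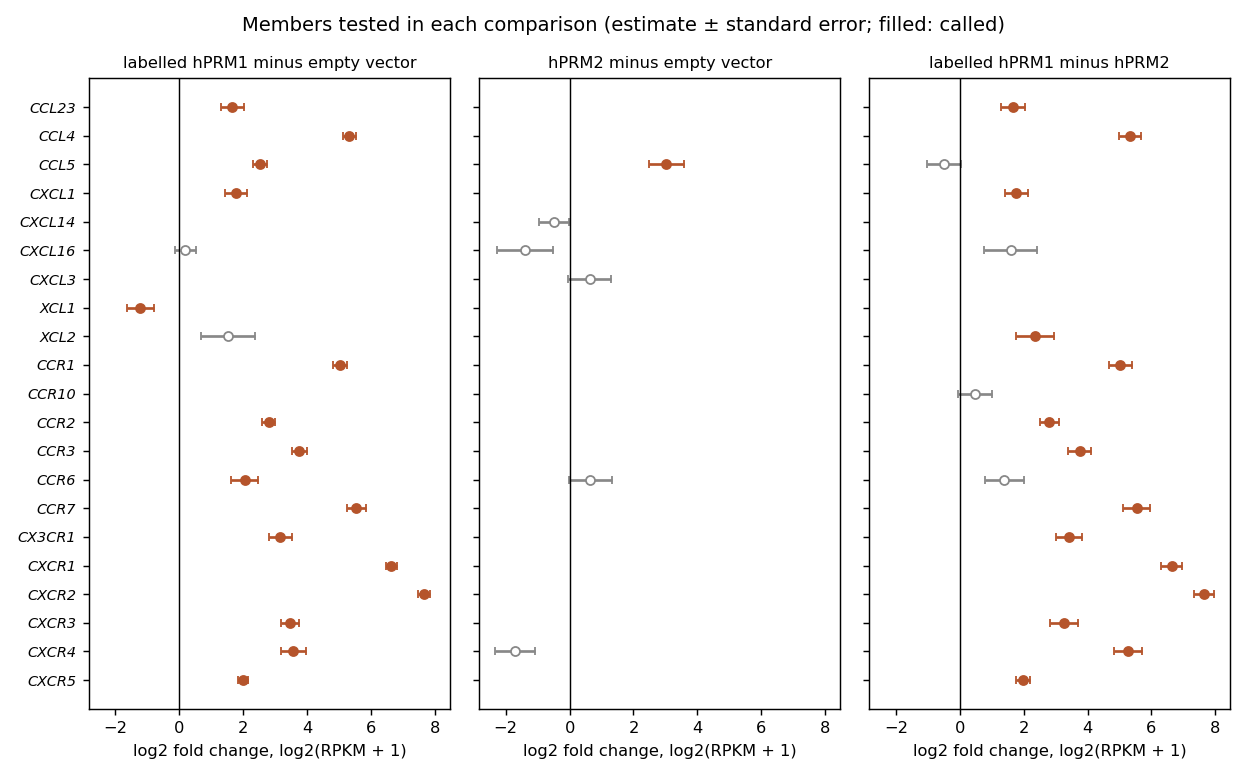
Log2 fold change on the log2(RPKM + 1) scale with its standard error for each member tested, in 3 panels for the 3 comparisons; filled points were called, and a missing point was too low to test. Apart from XCL1, the filled points lie right of 0, and in the middle panel CCL5 is the only filled point.

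Compared directly, the libraries labelled hPRM1 and hPRM2 differed mainly in members that had to differ to be tested. The call for CCL5 depended on the setting. Of 19 members tested, 15 were called higher under the label hPRM1 and 0 lower, beside 16.0% higher and 37.0% lower of all 11756 genes tested. At an unadjusted p under 0.05 and by the gene-wise test, 0 members were lower as well. The 15 comprised 5 ligands and 10 receptors. Of these 15, all but CXCR4, 14 members, reached 1 RPKM only under the label hPRM1 and had to differ to be tested. Their number therefore says nothing further. CCL5 differed by -0.50 (standard error 0.53, limma adjusted p = 0.474) in the deposited scaling, and its sign turned to 1.44 (adjusted p = 0.0978) after median-of-ratios rescaling and to 1.69 (adjusted p = 0.0299, called higher) after quantile normalization. Without hPRM2 replicate 1, CCL5 was called lower under the label hPRM1, at -1.09 (limma adjusted p = 0.00606). CXCL16 (1.59, limma adjusted p = 0.159), CCR6 (1.40, limma adjusted p = 0.0982) and CCR10 (0.47, limma adjusted p = 0.505) were not called. After median-of-ratios rescaling and quantile normalization, CXCL16 was called at 2.97 and 2.45 and CCR6 at 2.75 and 2.28. CXCL16 was also called without hPRM2 replicate 2 (2.30, limma adjusted p = 0.0430), and CCR6 without hPRM2 replicate 3 (1.89, limma adjusted p = 0.0361). XCL2, at 0 in all hPRM2 libraries, was called by 2.35 (limma adjusted p = 0.0166). The comparisons share the libraries labelled hPRM1 or the empty vector, and their values are therefore not independent.

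Genes that carry the signal of chemokine receptors were examined as a list of 31. In the libraries labelled hPRM1, 19 of the 29 tested were called higher and 5 lower against the empty vector, with a median of 1.99 beside -1.72 for all genes, of which 12.9% were called higher and 62.5% lower. Of the 29, 5 reached 1 RPKM only under the label hPRM1 and had to differ, PTK2B among them. RAC2, a small GTPase of blood cells, rose by 8.22, from at most 1.52 RPKM to 461 to 542 RPKM. PTK2B, a focal adhesion kinase relative, rose by 5.35, and PLCB2, a phospholipase C isoform of blood cells, by 5.32. The largest falls were in RGS16, which shortens G protein signals (-3.10), the G protein gamma subunit gene GNG5 (-2.93) and the phospholipase C gene PLCB3 (-2.14). For these 6 genes, the adjusted p (limma) ran from 5.04e-06 to 0.000164. In this comparison RGS16 reached 1 RPKM only in the empty vector, so that it had to be lower to be tested. In hPRM2, 1.36% of all genes were called higher and 1.37% lower. Of the 23 genes of this list tested there, 1 was called, the guanine nucleotide exchange factor VAV1. It was lower, at 0 in all 3 libraries against 2.35, 3.56 and 5.37 RPKM (log2 difference -2.20, limma adjusted p = 0.0428). In this comparison VAV1 reached 1 RPKM only in the empty vector, so that it had to be lower to be tested. It was called in 4 of 12 other settings.

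Of 17 genes for NF-kappa-B, interferon regulatory factors, STAT and AP-1 proteins, 16 were tested in hPRM2 and 0 were called by limma. Their median was -0.42 beside -0.72 for all genes. Since 1.36% of all genes were called higher and 1.37% lower, a count of 0 among the 16 says little. At an unadjusted p under 0.05, 0 were higher and 3 lower (NFKB1, NFKBIE and STAT2), while the gene-wise test also called 0. Of all 13126 genes tested, 3351 were at an unadjusted p under 0.05 in either direction, so that these 3 say little as well. In the libraries labelled hPRM1, 8 of 17 were called higher and 1 lower, with a median of 0.79, beside 12.9% higher, 62.5% lower and a median of -1.72 for all genes. IRF5 was the 1 gene of these 17 that reached 1 RPKM only under that label. IRF1, an activator of interferon-responsive genes, rose by 3.51, with 109, 133 and 139 RPKM against 9.55 to 10.5 RPKM. IRF5 and IRF7, factors of the innate interferon response, rose by 2.74 and 2.69. JUN, an AP-1 subunit, was the gene called lower, at 2.02, 3.10 and 4.07 RPKM against 216 to 349 RPKM (log2 difference -6.23). For these 4 genes, the adjusted p (limma) ran from 6.52e-06 to 0.000714. In hPRM2, IRF1 had 3.06, 16.0 and 9.66 RPKM and JUN had 275, 466 and 324 RPKM, both in ranges that overlapped with the empty vector. The part of any of the 17 genes in the level of CCL5 was not tested.

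A list of further chemokine and receptor genes, mostly named outside the rule for members, was at 0 in all hPRM2 libraries. Of the 10 genes of that list, which shares CXCL17 with the members, 4 were tested in the libraries labelled hPRM1 and all 4 were called higher, beside 12.9% of all genes. Of these 4, 3 reached 1 RPKM only under that label and had to differ to be tested, so that the count says nothing further. PF4, the platelet chemokine CXCL4, had 290, 460 and 416 RPKM against 0, 0 and 4.45 RPKM in the empty vector (log2 difference 7.76, limma adjusted p = 6.33e-05). PPBP, which encodes the platelet ligand of CXCR2, had 8.07, 17.9 and 13.2 RPKM and was at 0 in the other 6 libraries (log2 difference 3.75, limma adjusted p = 4.92e-05). CMKLR1, the chemerin receptor, had 2.70, 3.08 and 1.89 RPKM and was also at 0 elsewhere (log2 difference 1.82, limma adjusted p = 0.000150). PF4 and PPBP are also in the platelet list.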

How the data were processed

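RNA was measured in 9 libraries by 3′ mRNA sequencing. According to the methods and the submitters' processing notes, the authors ran nf-core/rnaseq (FastQC, Cutadapt, STAR, Salmon, hg38, versions and annotation not given in the sources used here), removed mitochondrial genes and deposited RPKM values, made from counts divided by the counted reads and the gene length in kilobases. Symbols were matched for 98.6% of identifiers. Groups came from the sample labels.

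Reads were estimated from low RPKM values with GENCODE 29 lengths less 250 bases, for 33 of the 43 members above 0. Of low values of genes with 1 transcript, 89.6% to 95.0% were whole within 0.05 reads, which was too few to run a test of counts. Values of 0 allow 3 reads. Comparisons used R 4.3.3 with limma 3.58.1 (lmFit, eBayes with trend and robust) on log2(RPKM + 1), with genes at 1 RPKM in at least 3 of 6 libraries, and the code was tested on simulated data. The gene-wise test of the study was an alternative, since the spread of a gene over 3 libraries is a poor estimate. Other values came from Python 3.11.15 with pandas 2.3.3 and numpy 2.4.6, and plots from matplotlib 3.10.9.

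Every member tested is named with values, except CCL3L3 and CCL4L2. CCL3L3, CCL4L2 and 1 further member, counted above, are not reported here or drawn. From each other list, the 3 largest rises and falls called under the label hPRM1 and each gene called in hPRM2 are named, and from marker lists the 2 highest, except genes whose level can differ between people. The members and lists were chosen with earlier results of these data known. DNA methylation was not analysed here.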

Additional observations from a re-analysis of the deposited data

How the results depend on the processing

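Leaving out a library from the group labelled hPRM1 left its specific genes in too few libraries for the filter, and so the number of members higher than in the empty vector, 16, ranged from 3 to 17 over the left-out libraries, and that against hPRM2, 15, from 1 to 16. A minimum of 10 RPKM tested fewer genes and gave 8 and 7. The 1 member lower under the label hPRM1, XCL1, was 0 members with a pseudocount of 5, no filter, the minimum of 10 RPKM, median-of-ratios rescaling, quantile normalization and the gene-wise test, and 0 to 1 when a library was left out. The 1 member higher in hPRM2, CCL5, was 0 members with a pseudocount of 0.1 (adjusted p = 0.0514), no filter (0.108), the minimum of 10 RPKM (0.0529), median-of-ratios rescaling (0.0507), the replicate block (0.0682) and the gene-wise test (0.206), and 0 to 1 when a library was left out. The number of members lower under the label hPRM1 than in hPRM2 ranged from 0 to 1. The cause was not tested except where stated. Signs turned for CXCL16 under the label hPRM1 without its replicate 2 (-0.02, and -0.02 to 0.46 over the left-out libraries), for CXCL14 in hPRM2 after quantile normalization (0.16) and for CCL5 between the libraries labelled hPRM1 and hPRM2 (1.44 and 1.69 after the 2 rescalings). Of 239, 82 and 236 values of single members under other settings, 220, 70 and 218 kept their direction and side of the threshold. Deviations from the group means correlated at -0.081 to 0.105 between same-numbered libraries, and at up to 0.115 between libraries of other numbers. With so few libraries this does not settle whether the numbers pair them. With the replicate block, 16 and 15 members were higher under the label hPRM1. Depth limits hPRM2 most.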
